A study of Mus musculus with 12 samples.

Results

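The 50 protein-coding genes whose symbols mark them as proteasome genes (Psma, Psmb, Psmc, Psmd, Psme, Psmf or Psmg followed by a digit, without Psmc3ip, which is no proteasome subunit) were described in 3 peak lists from spermatogenic cells of mouse testes. They were chosen by symbol among the 21887 protein-coding genes of the RefSeq gene table. Of the 50, 45 encode general subunits and factors, and 5 encode forms that are known from particular cell types: Psma8 in the testis, Psmb8, Psmb9 and Psmb10 in immune cells and Psmb11 in the thymus. A gene was counted as having a peak where a peak touched the 1 kb on both sides of either of its annotated ends.

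The study precipitated INO80, an ATPase that gives its name to a complex which slides and edits nucleosomes, and H2A.Z, a variant of histone H2A that is found beside the start sites of many genes. All cells came from testes of mice of mixed background at postnatal day 18. INO80 was precipitated from cells labelled wild type. H2A.Z was precipitated from cells of genotype Ino80WT, called wild type below, and of genotype Ino80cKO, called knockout below. The knockout carries a testis-specific deletion of Ino80 made by Stra8-Cre. Stra8 is switched on in germ cells shortly before meiosis, so that the deletion is directed at germ cells and not at the somatic cells of the testis. Each ChIP group and each input group had 2 libraries, 12 in all, but each ChIP group is represented by 1 peak list, so the values carry no error between replicates and no difference could be tested. The cells are a mixture, and fewer cells carrying a peak cannot be told apart from a weaker signal in each cell.

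The proteasome is the protease that degrades proteins tagged with ubiquitin. Its 20S core is a barrel of alpha and beta rings, with the active sites on the inside of the beta rings. The 19S particle, a ring of ATPases surrounded by non-ATPase subunits, binds the ubiquitin tag, removes it and feeds the unfolded protein into the core. Other caps (the Psme proteins) open the core without ubiquitin, and dedicated chaperones assemble the core and the 19S particle. Immune cells exchange the 3 catalytic beta subunits for Psmb8, Psmb9 and Psmb10, thymic epithelium uses Psmb11, and germ cells build a core with Psma8 in place of Psma7. The cap protein Psme4 is best known in the testis, where it takes part in the removal of histones in spermatids.

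The promoters of 6 members are given first, because the peaks at these genes span the range described below. Psmb5, Psmb8 and Psmb11 encode the same catalytic position of the core in its general, immune and thymic form. Psma7 had the widest INO80 peak of all members, Psmc4 had H2A.Z without INO80, and Psme4 had the H2A.Z peak over its start site replaced by a pair of narrower peaks in the knockout list. Each sequence is the 250 bases before the listed start site, 5′ to 3′ on the strand of the gene, from RefSeq (GRCm38.p6, the assembly that mm10 names). Capitals mark matches to 9 motifs searched on both strands: the antioxidant response core, YY1 in a short and a long form, ETS, NF-Y, the NRF1 palindrome, the CREB site, the interferon response element and the TATA box.
Psmb5 (chr14:54617996-54618245, minus strand): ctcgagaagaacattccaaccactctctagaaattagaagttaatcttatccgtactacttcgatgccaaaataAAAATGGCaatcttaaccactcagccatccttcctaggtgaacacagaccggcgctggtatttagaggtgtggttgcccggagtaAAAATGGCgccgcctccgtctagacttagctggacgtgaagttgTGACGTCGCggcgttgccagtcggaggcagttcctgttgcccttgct
Psmb8 (chr17:34197945-34198194, plus strand): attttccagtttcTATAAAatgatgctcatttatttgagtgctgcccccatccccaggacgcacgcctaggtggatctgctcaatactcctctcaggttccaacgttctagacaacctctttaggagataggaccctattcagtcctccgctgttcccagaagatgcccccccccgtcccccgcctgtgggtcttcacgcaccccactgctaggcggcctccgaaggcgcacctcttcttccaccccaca
Psmb11 (chr14:54625060-54625309, plus strand): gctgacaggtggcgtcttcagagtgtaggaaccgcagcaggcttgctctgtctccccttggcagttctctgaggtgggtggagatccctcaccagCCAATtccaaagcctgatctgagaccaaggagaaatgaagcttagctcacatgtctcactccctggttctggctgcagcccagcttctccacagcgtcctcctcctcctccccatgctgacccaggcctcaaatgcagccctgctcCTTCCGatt
Psma7 (chr2:180042465-180042714, minus strand): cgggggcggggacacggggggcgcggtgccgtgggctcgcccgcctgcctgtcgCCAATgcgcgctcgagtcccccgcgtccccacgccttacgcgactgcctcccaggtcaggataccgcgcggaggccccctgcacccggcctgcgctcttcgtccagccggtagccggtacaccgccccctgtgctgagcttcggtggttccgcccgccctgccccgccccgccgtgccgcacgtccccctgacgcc
Psmc4 (chr7:28050093-28050342, minus strand): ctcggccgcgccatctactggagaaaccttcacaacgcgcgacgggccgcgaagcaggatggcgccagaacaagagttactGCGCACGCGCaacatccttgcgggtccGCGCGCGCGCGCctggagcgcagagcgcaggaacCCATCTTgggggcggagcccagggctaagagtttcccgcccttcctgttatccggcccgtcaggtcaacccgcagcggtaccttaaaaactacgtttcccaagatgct
Psme4 (chr11:30771525-30771774, plus strand): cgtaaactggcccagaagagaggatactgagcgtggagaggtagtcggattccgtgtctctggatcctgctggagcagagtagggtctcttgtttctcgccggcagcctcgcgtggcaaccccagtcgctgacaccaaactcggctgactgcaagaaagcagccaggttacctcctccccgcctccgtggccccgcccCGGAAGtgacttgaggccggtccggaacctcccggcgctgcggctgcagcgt

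The 6 sequences differ in their content of CpG, the dinucleotide that is concentrated in the promoters of widely expressed genes. The observed over expected CpG ratio, taken over the 250 bases shown, was 0.977 for Psmb5, 0.578 for Psmb8 and 0.199 for Psmb11. It was 0.965 for Psma7, 1.15 for Psmc4 and 0.791 for Psme4. Psma7 also had the highest GC content of the 6, 77.2%, against 49.6% for Psmb5. Psmb11, the one with few CpG, was also the one of the 6 without a peak of any list at its gene ends. Few CpG in the promoter did not go with absent peaks at the gene ends of each member, however. Over the whole listed promoter the ratio was 0.192 for Psmb10, which had a peak of every list, and 0.165 for Psmb11. The Psmb10 peaks began between 601 and 679 bp downstream of the listed start, outside that promoter, and the CpG ratio beneath them was not measured.

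Proteasome genes mostly had all 3 kinds of peak. INO80 was at the gene ends of 42 of the 50 members (84.0%, exact binomial 95% interval 70.9 to 92.8), against 54.5% of all protein-coding genes. Wild-type H2A.Z was at 46 members (92.0%, 80.8 to 97.8), against 62.6% of all genes, and knockout H2A.Z at 45 (90.0%, 78.2 to 96.7), against 59.2%. All 3 lists had a peak at 41 members (82.0%, 68.6 to 91.4), against 50.6% of all genes, and 4 members, Psma6, Psmb11, Psme2b and Psmf1, had none (8.0%, 2.22 to 19.2), against 35.0%. The 8 members without INO80 were these 4 and Psma1, Psmc4, Psmd10 and Psmg3, which had H2A.Z in both genotypes. Among the widest 50% of each list, INO80 was at 12 of the 50 members (24.0%) and 32.9% of all genes, all 3 lists were at 16.0% and 24.9%, and knockout H2A.Z at 42.0% and 43.1%, so that these shares were no longer above those of all genes. Wild-type H2A.Z was at 60.0% of the members and 49.2% of all genes in that setting, and was listed in wild type alone at 22.0% and 8.46%. The intervals cover the counting of genes only, not the error between libraries. H2A.Z was listed in wild type and not in knockout at 1 member, Psmd8 (2.0%, against 4.13% of all genes). It was listed in knockout and not in wild type at 0 members, where the exact interval reached 7.11% and the share of all genes was 0.653%. The wild-type list is the longer one. With only its widest peaks, as many as the knockout list holds, wild-type H2A.Z was at 78.0% of the members. In that setting 0 members had H2A.Z in wild type alone and 12.0% in knockout alone, against 2.68% of all genes. The knockout list kept its narrow peaks there. The members counted as knockout alone all have a wild-type peak in the full list, so the cut itself produced this share.

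The lists themselves held 18139 INO80 peaks, 33827 wild-type and 26199 knockout H2A.Z peaks, and the narrowest peaks of all lists had the size of about one nucleosome. The number of reads behind a peak is unknown. Marker genes of cell types were also looked at: INO80 was at 7 of 8 germ cell genes (all but Stra8), 4 of 9 genes of somatic testis cells and 2 of 8 leukocyte genes, Cd79a and Cd68. The share of all genes, 54.5%, lies within the exact intervals of these counts (47.3 to 99.7%, 13.7 to 78.8% and 3.19 to 65.1%). They therefore cannot settle the cell type. Wild-type H2A.Z was at 6 of 8, 5 of 9 and 2 of 8 of these genes, against 62.6% of all genes. Peaks show where a factor sits and not whether a gene is expressed, so markers of other cell types with a peak, such as Sox9 and Wt1 of Sertoli cells, do not measure how many such cells were present. INO80 was not listed for knockout cells, so the peak lists hold no direct check of the deletion.

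Although INO80 was at most of these genes, its peaks there were narrow. The median width of the widest INO80 peak per member was 425.5 bp over 42 members (binomial 95% interval of the median 338 to 511 bp, range 152 to 2984 bp), against 844 bp over all genes with INO80. An INO80 peak wider than 1000 bp was at 4 of the 42 members (9.52%), Psma7, Psmb8, Psmb9 and Psme2, against 41.5% of all genes with INO80. H2A.Z peaks differed less from the rest: the median was 604 bp in wild type (444 to 740 bp, 46 members), against 805 bp over all genes, and 407 bp in knockout (291 to 523 bp, 45 members), against 671 bp. INO80 was wider than wild-type H2A.Z at 15 of the 42 members with both (35.7%), against 50.6% of all genes with both. Peak width is used here as the only graded value in the lists, and it stands in imperfectly for strength.

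**Figure D1:**
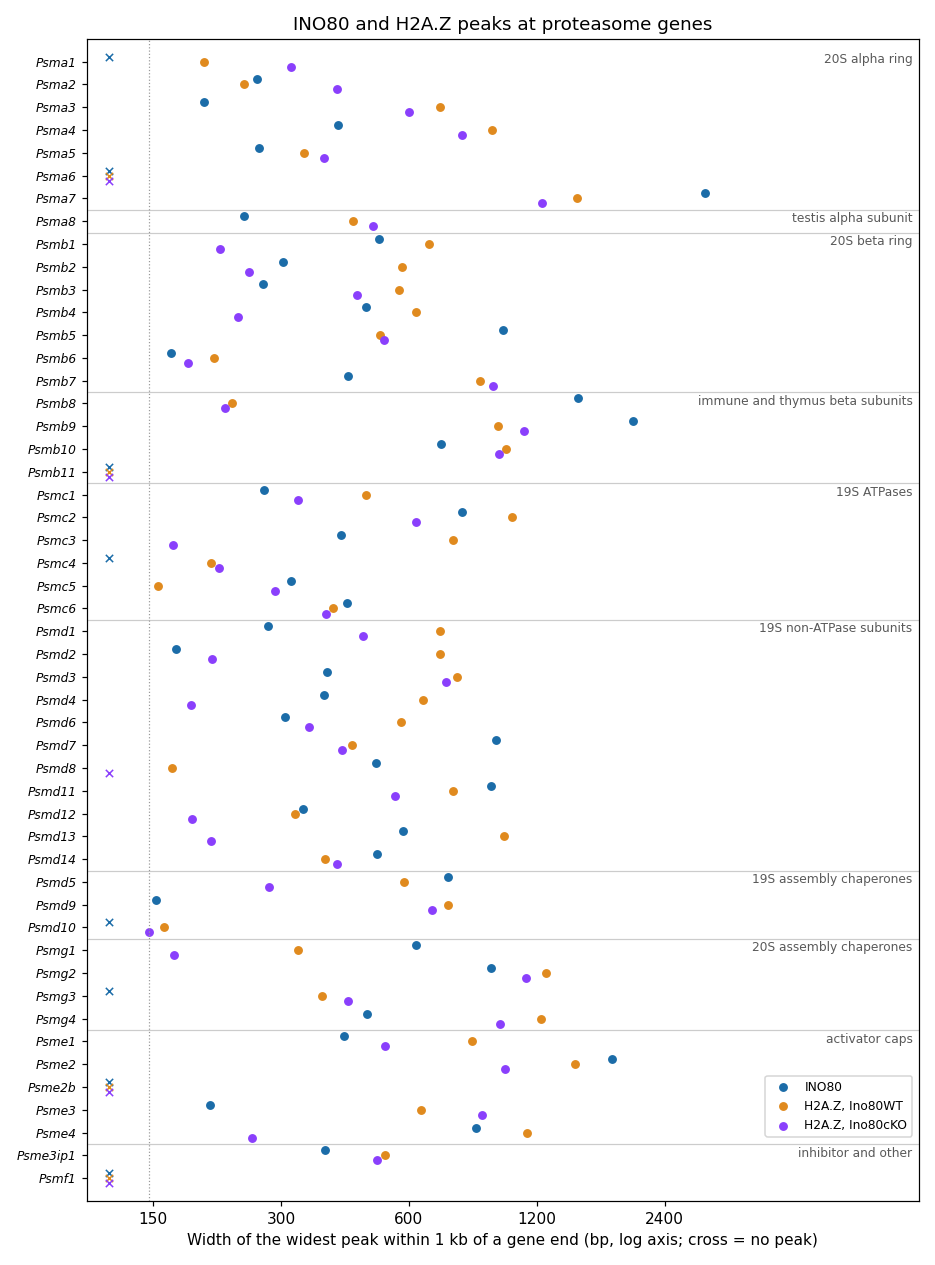
Width in bp (log axis) of the widest INO80, wild-type H2A.Z (Ino80WT) and knockout H2A.Z (Ino80cKO) peak at the gene ends of each of the 50 members, grouped by role; crosses mark members without a peak and the dotted line the smallest peak of the lists. INO80 lies left of the wild-type H2A.Z point at most general subunits. It lies farthest right of that point at Psmb8 (1502 and 230 bp) and next at Psmd8 (501 and 166 bp).

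The alpha ring forms the gate of the 20S core. INO80 was at 5 of its 7 genes and H2A.Z of each genotype at 6. Psma7, the alpha subunit that Psma8 replaces in germ cells, stood apart: its INO80 peak spanned 2984 bp (chr2:180041501-180044484), began at position -2020 from the start site and also covered the neighbouring gene Ss18l1, and its H2A.Z peaks measured 1493 bp in wild type and 1232 bp in knockout. The widest INO80 peaks of the other 4 genes were between 198 bp, at Psma3, and 408 bp, at Psma4. Wild-type and knockout H2A.Z measured 246 and 407 bp at Psma2, 340 and 378 bp at Psma5, and 941 and 801 bp at Psma4. Psma1 had H2A.Z of 198 bp in wild type and 317 bp in knockout just downstream of its start, and its nearest INO80 peak lay 9841 bp from a gene end.

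At Psma6, Psma3 and Psmf1, which encodes an inhibitor of the proteasome, a listed start site lies inside the annotated gene. Psma6 and Psmf1 had no peak at either annotated gene end. Within 1 kb of the listed start inside the gene, however, Psma6 had INO80 of 667 bp, wild-type H2A.Z of 337 bp and knockout H2A.Z of 304 bp, and Psmf1 had 605, 915 and 837 bp. Psma3 had peaks of 198, 712 and 600 bp in the same order at its gene end and of 630, 469 and 395 bp at the listed start inside the gene. Counted by listed start sites, 36 of the 42 members with one had INO80.

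Every one of the 7 general beta subunit genes had all 3 kinds of peak, with INO80 widths between 165 and 997 bp. Psmb5, which carries the chymotrypsin-like site, had the widest INO80 peak of the ring, 997 bp, beside H2A.Z of 513 bp in wild type and 523 bp in knockout. Psmb6, which carries the caspase-like site, had the narrowest INO80 peak of the ring, 165 bp, with wild-type H2A.Z peaks of 209 and 162 bp on both sides of the start and a single knockout peak of 181 bp. Psmb7, which carries the trypsin-like site, had INO80 of 431 bp and H2A.Z of 881 and 947 bp. The width ratios of knockout to wild-type H2A.Z at these 3 catalytic genes were 1.02, 0.866 and 1.07. That of Psmb6 sets its downstream knockout peak beside its wider upstream wild-type peak, and was 0.488 with both wild-type peaks summed. At the non-catalytic Psmb1, Psmb2 and Psmb4 the widest H2A.Z peak measured 670, 578 and 624 bp in wild type and 216, 252 and 238 bp in knockout, where Psmb2 also had a second peak of 185 bp. Psmb3, also non-catalytic, had INO80 of 272 bp and H2A.Z of 569 bp in wild type and 453 bp in knockout.

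The testis, immune and thymus forms did not behave as 1 group. INO80, wild-type H2A.Z and knockout H2A.Z were each at 4 of the 5 genes, against 38, 42 and 41 of the 45 general members, and with 5 genes the exact interval for 4 of 5 runs from 28.4 to 99.5%. Psma8, the germ cell form, had modest peaks in all 3 lists: INO80 of 245 bp and H2A.Z of 444 bp in wild type and 494 bp in knockout. Its general counterpart Psma7 had an INO80 peak of 2984 bp, which also touched the window of Ss18l1.

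The immune forms Psmb9 and Psmb8 had 2 of the 4 widest INO80 peaks of all members, 2022 bp (chr17:34186445-34188466) and 1502 bp (chr17:34197381-34198882). Both peaks also touched the window of Tap1, the peptide transporter gene that lies between them, and the Psmb9 peak covers the start shared by the divergent genes Psmb9 and Tap1, so neither can be assigned to the proteasome gene alone. H2A.Z at Psmb9 measured 973 bp in wild type and 1117 bp in knockout. At Psmb8 the wide INO80 peak held little H2A.Z: peaks of 221 and 230 bp in wild type and 1 of 222 bp in knockout. Psmb10 had INO80 of 713 bp and H2A.Z of 1018 and 976 bp, all of which began between 601 and 679 bp downstream of the listed start. The thymic Psmb11 had none, and the nearest INO80 peak, 6846 bp away, was the one at Psmb5.

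For the position of the core that is filled by Psmb5, Psmb8 or Psmb11, INO80 therefore measured 997 bp at the general gene, 1502 bp at the immune gene and was not listed at the thymic gene. The median knockout over wild-type H2A.Z width of the 4 special forms with both peaks was 1.04 (range 0.959 to 1.15), and that of the 41 general members was 0.825 (0.204 to 1.89). With the widths of all peaks at a gene summed, Psmb8 had a ratio of 0.492 in place of 0.965, because its upstream wild-type peak was not listed in knockout.

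The ATPases form the motor of the 19S particle. INO80 was at 5 of the 6 genes and H2A.Z of both genotypes at all 6. By the widest INO80 peak of each gene, Psmc2 was highest with 800 bp, in a window shared with Dnajc2, and Psmc1 lowest with 274 bp. H2A.Z of wild type and knockout measured 475 and 329 bp at Psmc1 and 398 and 382 bp at Psmc6. At Psmc2 the knockout peak of 622 bp faced a wild-type peak of 659 bp at the same place. Its widest wild-type peak, of 1048 bp, reached the window from inside the gene, where it covered another listed start of Psmc2. Psmc4 had 2 wild-type H2A.Z peaks, of 203 and 205 bp, and 2 knockout peaks, of 153 and 214 bp, on both sides of its start, and its nearest INO80 peak lay 27664 bp from a gene end. At Psmc3 the H2A.Z peak measured 762 bp in wild type and 167 bp in knockout. At Psmc5 the wild-type peak of 154 bp lay upstream of the start and the knockout peak of 291 bp downstream of it, so the ratio of their widths, 1.89, sets 2 different positions side by side.

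All 11 non-ATPase subunit genes of the 19S particle had INO80, with widths between 170 bp, at Psmd2, and 961 bp, at Psmd7. H2A.Z was narrower in knockout than in wild type at 9 of the 10 genes with both (exact interval 55.5 to 99.7%), against 72.0% of all genes with both. The median ratio was 0.633 (interval 0.284 to 0.95), or 0.668 with widths summed, against 0.895 and 0.882 over all genes. The share and the ratio of all genes thus lie within the intervals of this group. Psmd13 had the lowest ratio of all members, 0.204, from 1004 bp in wild type to 205 bp in knockout. Psmd4, a ubiquitin receptor, went from 648 to 184 bp, and Psmd2, a scaffold subunit of the base, from 709 bp to a pair of peaks of 149 and 206 bp. Psmd14, the deubiquitinase of the lid, was the exception, with 381 bp in wild type and 406 bp in knockout. Psmd7, its partner in the lid, and Psmd11, another lid subunit, had the widest INO80 of the group, 961 and 937 bp, with H2A.Z of 440 and 418 bp at Psmd7 and of 763 and 556 bp at Psmd11. Wild-type and knockout H2A.Z at the rest measured 710 and 467 bp at Psmd1, 777 and 733 bp at Psmd3, 576 and 350 bp at Psmd6 and 323 and 185 bp at Psmd12. Psmd8 had INO80 of 501 bp and wild-type H2A.Z of 166 bp, and its nearest knockout peak lay 3753 bp from a gene end.

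Among the chaperones that assemble the 19S base, Psmd5 had INO80 of 742 bp, with H2A.Z of 584 bp in wild type and 281 bp in knockout, and Psmd9 the narrowest INO80 peak of all members, 152 bp, within H2A.Z peaks of 740 bp in wild type and 680 bp in knockout. Psmd10 had no INO80 within 1 kb of its ends, and H2A.Z near the smallest listed width, 159 bp in wild type and the smallest listed width itself in knockout. The chaperones of the 20S core act in the pairs Psmg1 with Psmg2 and Psmg3 with Psmg4. Psmg1, Psmg2 and Psmg4 had INO80 of 623, 938 and 477 bp. Their H2A.Z measured 329, 1262 and 1225 bp in wild type and 168, 1130 and 984 bp in knockout. Psmg3 had its nearest INO80 peak 14988 bp from a gene end, and had 2 H2A.Z peaks in each genotype, of 374 and 227 bp in wild type and of 431 and 180 bp in knockout.

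The genes of the activator caps varied widely. Psme2, which with Psme1 encodes the cap that is induced by interferon, had INO80 of 1804 bp in a region shared with Rnf31, and H2A.Z of 1474 bp in wild type and 1008 bp in knockout. Psme1 had INO80 of 423 bp and H2A.Z of 843 and 526 bp. Psme3, the nuclear cap, had INO80 of 204 bp and had wider H2A.Z in knockout, 891 bp, than in wild type, 642 bp. Psme4, the cap of spermatids, had INO80 of 865 bp, and H2A.Z of 1138 bp in wild type and of 257 and 247 bp in knockout. Psme2b, a retrocopy of Psme2, had no peak of any list, and the nearest INO80 peak lay 47040 bp away. Psme3ip1, which encodes a partner of Psme3, had INO80 of 381 bp and H2A.Z of 527 and 504 bp.

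Where the start was known, INO80 peaks mostly covered it or lay downstream of it. The promoter table listed a start site for 42 of the 50 members, and not for Psma8, Psmb1, Psmb2, Psmb7, Psmc3, Psmd3, Psmd7 and Psmg2. Each peak was placed by the listed start nearest to it. Of the 38 INO80 peaks at members with a start, 18 lay wholly downstream of it, 13 covered it and 7 lay wholly upstream. Of the 48 wild-type H2A.Z peaks, 15 lay downstream, 19 covered the start and 14 lay upstream, and of the 47 knockout peaks 25 lay downstream, 8 covered it and 14 lay upstream. These counts were not made for all genes. Peaks of all genes also leaned downstream: INO80 covered 48.4% of them at 150 bp downstream of a listed start and 29.8% at 150 bp upstream. Of all 46 INO80 peaks at member gene ends, 43 overlapped a wild-type H2A.Z peak (93.5%), against 92.4% of the INO80 peaks at any gene end. The 3 without overlap were the INO80 peak of Psma5, which began 390 bp downstream of a start that was covered by H2A.Z in both genotypes, and both INO80 peaks of Psmc5.

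**Figure D2:**
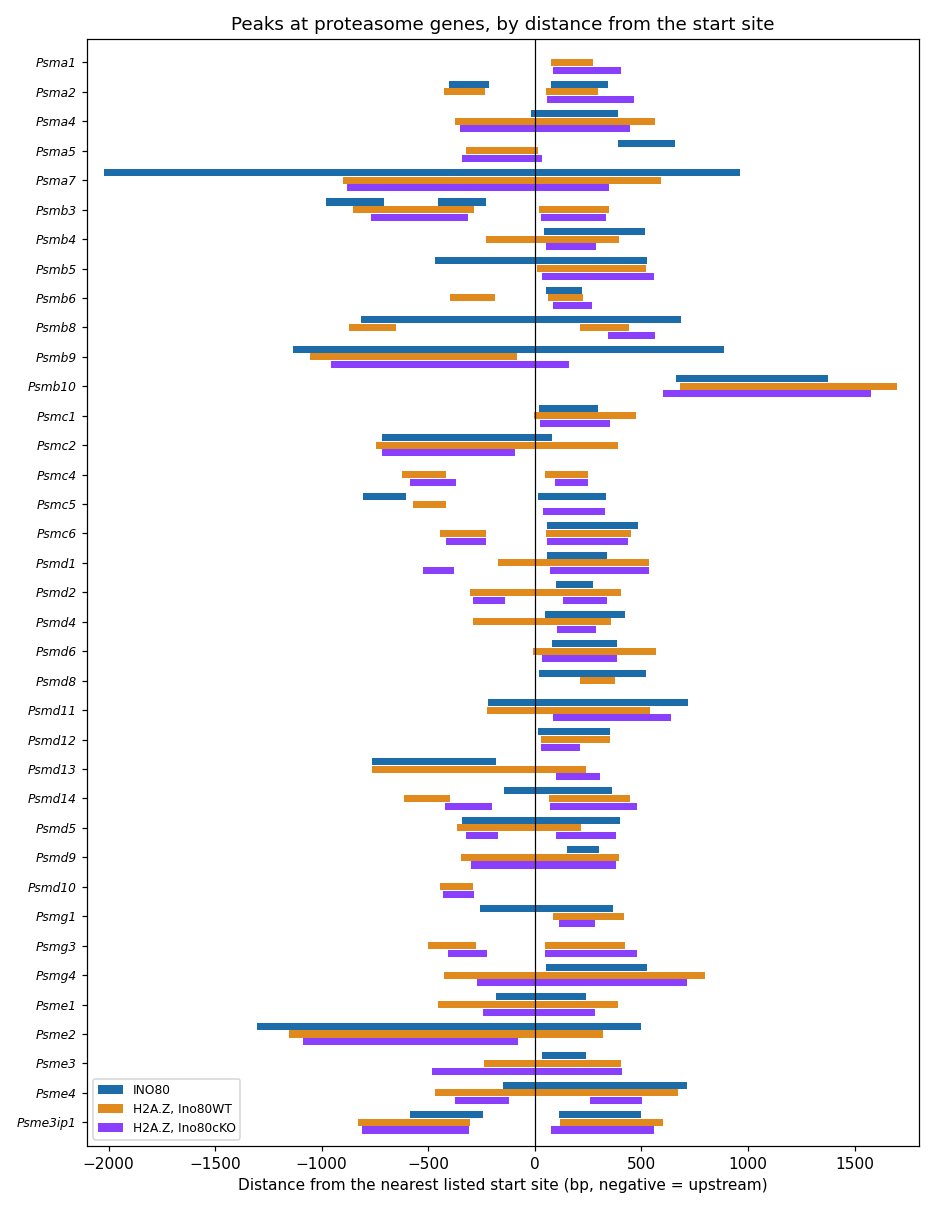
Extent of every INO80 and H2A.Z peak at the gene ends of members with a listed start site, in bp from the nearest listed start (vertical line; negative values are upstream). Psma3, whose gene-end peaks lie more than 5 kb from its listed start, and members without a gene-end peak are not drawn. At Psmd1, Psmd2, Psmd4, Psmd5 and Psme4 the wild-type peak crosses the line and the knockout peaks lie on one or both sides of it.

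For cover base by base, a single listed start was used per gene. INO80 cover of the members was highest between 150 and 218 bp downstream of the start, where 69.0% of the 42 genes lay in a peak, against 26.2% at 150 bp upstream. Over all 17492 genes with a listed start, cover was highest at 48.4%, also from 150 bp downstream. Wild-type H2A.Z was highest at 76.2% of the members between 213 and 217 bp downstream, and knockout H2A.Z at 71.4% between 133 and 160 bp downstream. At 150 bp upstream, wild-type H2A.Z covered 45.2% of the members and knockout H2A.Z 31.0%, against 38.2 and 30.4% of all genes. The members' cover thus exceeded that of all genes most just downstream of the start, where the first nucleosome of a gene usually lies.

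**Figure D3:**
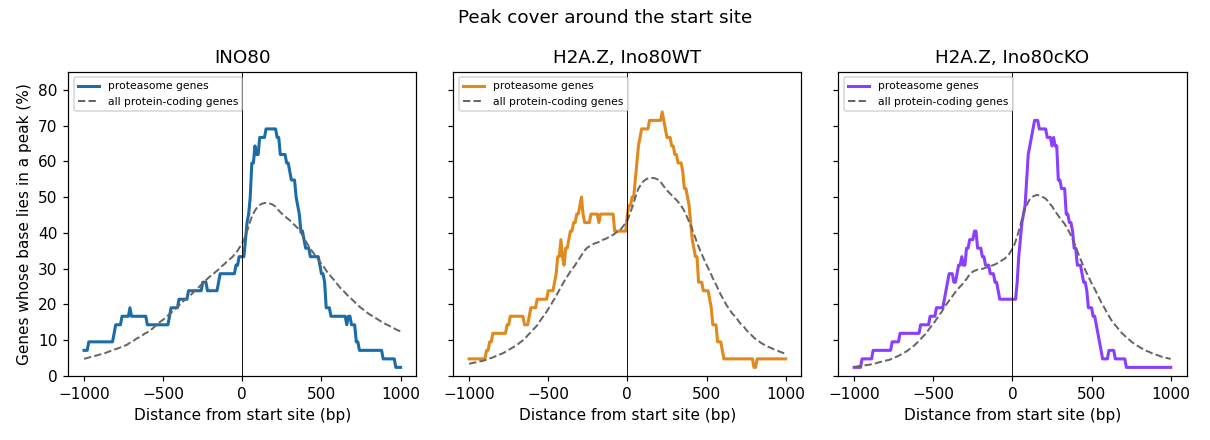
Percent of genes whose base lies in a peak, by distance in bp from the start site, for the 42 members with a listed start (solid) and all 17492 genes with one (dashed), in the 3 peak lists, drawn every 10 bp. At the start itself knockout H2A.Z covers 21.4% of the members and wild-type H2A.Z 45.2%, while at 150 bp downstream the members stand above all genes in each list.

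At the base of the start site itself the genotypes differed more often at these genes than at other genes, in a measure chosen after the data were seen and with no test of the difference. A single listed start was counted per gene, also where more were listed. This start base lay in an INO80 peak at 14 of the 42 members (33.3%, against 37.2% of all genes), in a wild-type H2A.Z peak at 19 (45.2%, against 43.5%) and in a knockout H2A.Z peak at 9 (21.4%, against 35.6%). Of the 19 covered in wild type, 11 were not covered in knockout (57.9%, exact interval 33.5 to 79.7), against 22.5% of all genes covered in wild type. The 11 were Psmb4, Psmc1, Psmd1, Psmd2, Psmd4, Psmd5, Psmd6, Psmd11, Psmd13, Psme2 and Psme4, 6 of them non-ATPase subunits of the 19S particle and Psmd5 its chaperone. Psmb9 was covered in knockout and not in wild type. Further listed starts were not counted, among them one of Psma6 that lay in an INO80 peak. Another, of Psmc2, lay in a wild-type H2A.Z peak and in no knockout peak.

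At 10 of the 11, all but Psme2, a knockout H2A.Z peak lay wholly downstream of the start, and its first base was between 22 bp (Psmc1) and 258 bp (Psme4) from it. At Psme4, whose promoter is printed above, the wild-type peak ran from position -467 to position 670 from the start, and the knockout peaks from -376 to -120 and from 258 to 504. At Psmd11 the knockout peak began 85 bp downstream and at Psmd6 35 bp downstream. At Psmc1 the wild-type peak began at position -2 and the knockout peak 22 bp downstream of the start, so that a shift of a few bases made the difference. With the start widened to 50 bp on both sides, 9 of 24 members covered in wild type were not covered in knockout (37.5%), against 18.3% of all genes. Over members with no other gene end within 2 kb, it was 8 of 9 (88.9%), against 923 of 4612 such genes.

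The wild-type peaks over the members' start sites were also narrower than those of all genes, with a median of 740 bp against 939 bp, and this moved with the difference. Among wild-type peaks under 800 bp, start cover was absent in knockout at 8 of 11 members (72.7%), against 33.9% of all genes with such peaks. Among wider ones it was absent at 3 of 8 members (37.5%), against 16.8%. The knockout list is also the shorter of the 2 H2A.Z lists, and the part of list depth and threshold in this difference was not tested.

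Over the whole of the gene ends, the genotypes differed at the members about as much as at other genes. Knockout H2A.Z was narrower than wild-type H2A.Z at 33 of the 45 members with both (73.3%, 58.1 to 85.4), against 72.0% of all genes with both. The median width ratio was 0.851 (interval 0.684 to 0.956, range 0.204 to 1.89), against 0.895 over all genes. The lowest ratios were those of Psmd13 (0.204), Psmc3 (0.219) and Psme4 (0.226, or 0.443 with its pair of knockout peaks summed). The highest were those of Psmc5 (1.89), Psma2 (1.65) and Psma1 (1.6). Psma2 had an additional wild-type peak upstream, and with widths summed its ratio was 0.931. By role, the medians were 0.981 for the alpha ring, 0.796 for the beta ring, 0.826 for the ATPases and 0.654 for the caps.

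**Figure D4:**
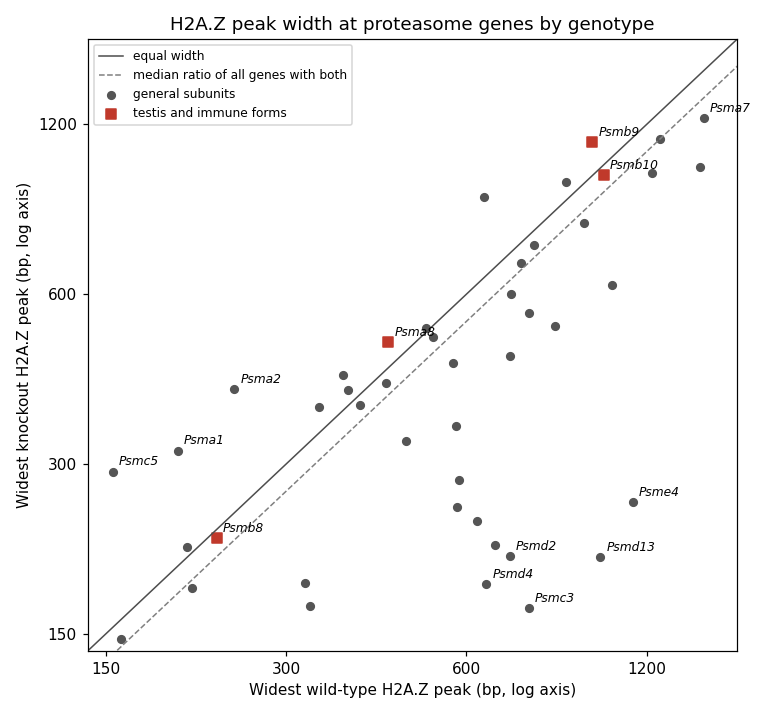
Width in bp of the widest knockout against the widest wild-type H2A.Z peak (both axes log) at the 45 members with both; squares are testis and immune forms, circles general members, the solid line equal widths and the dashed line the median ratio of all genes, 0.895. Psmd13, Psmc3, Psme4, Psmd4 and Psmd2 lie far below the lines, and the 4 special forms close to the line of equal widths.

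Most wild-type H2A.Z peaks at the members had a knockout counterpart. Of 56 wild-type peaks, 5 overlapped no knockout peak (8.93%, against 11.7% of wild-type peaks at any gene end) and 4 overlapped 2 knockout peaks or more (7.14%, against 5.13%). The 5 without a counterpart were those of Psmc5 and Psmd8 and the upstream peaks of Psma2, Psmb6 and Psmb8, and the 4 split ones those of Psmb2, Psmd2, Psmd5 and Psme4. Of 56 knockout peaks at members, 2 overlapped no wild-type peak, that of Psmc5 and an upstream peak of the smallest width at Psmd1.

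Ribosomal protein genes, another set of genes for a large and widely used machine, were set beside the members. INO80 was at 68 of 79 cytosolic (86.1%) and 67 of 78 mitochondrial (85.9%) ribosomal protein genes, shares that lie within the members' interval of 70.9 to 92.8%. Median INO80 widths were 626 bp (interval 508 to 768) at the cytosolic and 501 bp (380 to 584) at the mitochondrial set, against 425.5 bp (338 to 511) at the members. INO80 was wider than wild-type H2A.Z at 67.7% of the cytosolic set and 34.3% of the mitochondrial set, the latter near the 35.7% of the members. Knockout H2A.Z was at 75.9% of the cytosolic set, 91.0% of the mitochondrial set and 90.0% of the members.

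Within genes of CpG-rich promoters, the share of members with a peak was close to that of all genes. Over the whole listed promoters, an observed over expected ratio of 0.6 or more was found in 30 of 42 members and in 8896 of 17492 genes, with medians of 0.749 and 0.61. Among CpG-rich genes INO80 was at 25 of 30 members (83.3%) and 84.8% of all genes, wild-type H2A.Z at 28 of 30 (93.3%) and 90.6%, and knockout H2A.Z at 27 of 30 (90.0%) and 87.6%. Among the 12 CpG-poor members, INO80 was at 9 and H2A.Z of either genotype at 10, against 22.7, 33.2 and 29.3% of all CpG-poor genes. Median INO80 width over all CpG-rich genes with INO80 was 833 bp. The 425.5 bp of the members is the median of all 42 members with INO80, CpG-rich or not, and the width of the CpG-rich members alone was not computed.

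Many members stand close to another gene. No other gene end lay within 2 kb of 24 of the 50 members (48.0%), against 67.8% of all genes, and 14 of the 42 members with INO80 shared that peak with a neighbour's window. Among those shared were the peaks of Psma7, Psmb8, Psmb9 and Psme2, which are the 4 wider than 1000 bp. Of the 24 members without such a neighbour, all had H2A.Z in both genotypes and 20 had INO80 (83.3%), with a median width of 358 bp against 932 bp over all such genes.

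The listed promoters were searched on both strands, from 250 bases before to 50 after the start, for 9 motifs, as a description of letters and not of binding. CGGAAG, the core bound by ETS factors, was in 24 of the 46 listed member promoters (52.2%, 23 of 42 genes), against 21.1% of all 21263 promoters and 34.7% of CpG-rich ones. It was in Psme4 at positions -52 to -47 from the start, in a promoter printed above, and as its reverse complement in Psmb11 at -9 to -4. CCATNTT, bound by YY1, was in 21.7% against 15.1% of all and 14.0% of CpG-rich promoters, and its longer form GCCATNTT, which holds the shorter one, in 13.0% against 6.37% and 8.87%. The upstream region of Psmb5 held the longer form at 2 places on the opposite strand.

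The antioxidant response core TGACNNNGC, bound by Nfe2l1 and Nfe2l2, the factors known to raise proteasome gene expression when the proteasome is blocked, was in 6 of 46 member promoters (13.0%), against 13.0% of all and 14.9% of CpG-rich promoters. The 6 were Psmb5, Psmb6, Psmc6, Psmd9, Psmd12 and Psme4. In Psmb5 it overlapped TGACGT, the CREB site, at position -47, and TGACGT was in 8.7% of member promoters against 8.49% of all and 13.1% of CpG-rich ones. CCAAT, bound by NF-Y, was in 32.6% against 38.2% and 36.5%. The NRF1 palindrome (GCGC, any 2 bases, GCGC) was in 15.2% against 8.57% of all and 16.9% of CpG-rich promoters, and Psmc4 held it 3 times, 2 of them overlapping. The interferon response element (GAAA, any 2 bases, GAAA) was in 5 promoters (10.9% against 3.35% of all and 2.26% of CpG-rich ones), Psmb3, Psmd4, Psmd9, Psme1 and Psmg4. TATAAA was in 8.7% against 12.6% of all and 5.58% of CpG-rich promoters, and Psmb8 held it far upstream, at -237 to -232.

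The genes that work with the proteasome had the same kinds of peak, in lists chosen by function. Over all protein-coding genes, INO80 was at 54.5%, wild-type H2A.Z at 62.6%, knockout H2A.Z at 59.2% and all 3 at 50.6%. These lists are short, and the exact interval for 5 of 6 genes runs from 35.9 to 99.6%. Of 17 partner genes (subunits without a Psm symbol, assembly factors, ubiquitin receptors and deubiquitinases), INO80 was at 15 (interval 63.6 to 98.5%), wild-type H2A.Z at 16 and knockout H2A.Z at 15. Ecpas, which encodes a proteasome-binding adaptor, had no peak, and Fbxo7, a ubiquitin ligase subunit that binds Psmf1, had only wild-type H2A.Z, of 1120 bp. Of 6 genes for ubiquitin and its activating enzymes, 5 had each kind of peak and Uba1 had none. All 9 regulators of proteasome genes had INO80 and wild-type H2A.Z, among them Nfe2l1 (620 and 605 bp) and Nfe2l2 (1603 and 1817 bp), and Vcp, the ATPase that extracts Nfe2l1 from the membrane, was the one without knockout H2A.Z. All 8 antigen processing genes had all 3 kinds of peak, with INO80 from 235 bp at B2m to 2472 bp at Irf1.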

How the data were processed

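The values used are positions in bp from the 3 peak lists that the authors deposited, each standing for a ChIP group of 2 libraries and giving chromosome, start and end without a score. Per the labels' protocols, cells were fixed in 0.3% formaldehyde and chromatin was cut with micrococcal nuclease, which leaves nucleosome-sized pieces. The submitters' processing notes name Bowtie2, SAMtools, deepTools, MACS2 and mm10. How libraries were combined, which control was used and which threshold applied is not given in the sources used here. Whether groups hold different animals is not stated. Input libraries were not analysed here.

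Gene ends on chromosomes 1 to 19, X and Y came from the RefSeq table of GRCm38.p6, and start sites from the RefSeq promoter table. A peak counted with 1 bp of overlap. The widest peak per gene and list gave the width. Shares carry exact binomial 95% intervals and medians binomial order-statistic intervals. They cover counting error only, and no test was run. Members, lists, comparison sets and motifs were chosen with earlier results of these data known. The CpG split, start-base cover and summed widths were added after the data were seen. All members could be named. Those without INO80, with H2A.Z in 1 genotype, of the special forms, and with the 3 widest or narrowest INO80 peaks or extreme width ratios were named by rule, and from lists those without a peak. Paaf1, 1 of 66 list symbols, was not in the gene table. Ribosomal sets were taken by symbol, without copies and kinases. Computation used matplotlib 3.10.9, scipy 1.17.1, pandas 2.3.3 and numpy 2.4.6 under Python 3.11.15. Overlap and motif search were tested on simulated data, and gene counts equalled those of bedtools 2.31.1.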

Additional observations from a re-analysis of the deposited data

How the results depend on the processing

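Of 97 values recomputed under other settings, 77 stayed within the interval of the value reported and 20 moved out of it. The 77 include values of INO80 or knockout H2A.Z alone with the wild-type list shortened, which that cut could not change. With only the widest 50% of each list, INO80 was at 24.0% of members and 20% of general members (32.9% of all genes), all 3 lists at 16.0% (24.9%) and knockout H2A.Z at 42.0% (43.1%), all below all genes and not above them as with the full lists. Wild-type H2A.Z was at 60.0% (49.2%) and wild type alone at 22.0% (8.46%), the latter now above all genes; median widths became 950 bp (INO80), 751 bp (wild type) and 680 bp (knockout), as the removal of narrow peaks makes them. Without members that had another gene end within 2 kb, wild-type and knockout H2A.Z were at 100%, wild type alone at 0.0%, INO80 and wild-type H2A.Z at 100% of the special forms (1 gene, Psma8) and loss of start cover at 88.9%. With 3 kb windows, wild-type H2A.Z was at 98.0% of members and 100% of special forms. When wild-type H2A.Z was cut to its widest peaks, as many as in knockout, it was at 78.0% of members and wild type alone at 0.0%. Knockout alone was then at 12.0%, against 2.68% of all genes, above them and not below. Only the wild-type list lost its narrow peaks in this setting, so the cut itself produced the members with knockout alone.

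Each group is 1 list, so no replicate could be left out, and depth per library is unknown. No paired analysis was possible because each group is 1 list. Peaks near the smallest width, such as those of Psmd10, are the most exposed to threshold. Widths between lists of unequal length depend on how each was called. Start sites were listed for 42 of 50 members.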

Other observations

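RefSeq also lists 6 pseudogenes named after proteasome subunits, which hold no functional gene and were not counted among the members. Psmb5-ps had 1 wild-type H2A.Z peak within 1 kb of its ends and no INO80 or knockout peak. The other 5, derived from Psma5, Psmb6 and Psmb7, had no peak of any list. The retrocopy Psme2b, which is annotated as protein-coding, likewise had none, while its parent gene Psme2 had INO80 of 1804 bp.

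Psmc2 had, besides the peaks at its gene end, an INO80 peak of 563 bp and a knockout H2A.Z peak of 292 bp further inside the gene, where the wild-type list had a peak of 1048 bp that reached the window. The INO80 and wild-type peaks there covered another listed start of Psmc2, and the knockout peak lay downstream of it.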
